A study of Mus musculus with 10 samples.

Results

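The enzymes that bring fatty acids into mitochondria and peroxisomes and oxidise them there were followed through RNA-seq of ASZ001 cells. The group holds 9 genes, Acsl3, Cpt1a, Cpt2, Acadvl, Acadl, Acadm, Hadha, Hadhb and Acox3, out of 17658 gene names in the table of the SB431542 experiment and 16719 in the table of the T-5224 experiment. The genes were chosen by symbol, as members of 1 pathway, with earlier results of the same libraries in view, so their changes are given as descriptions and support nothing by themselves. All 9 were listed in both tables and all 9 passed the filter on low values. The lowest value of any member in any library was 3.25 RPKM (a read count scaled by transcript length and by library size), so no member passed through 1 group alone.

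ASZ001 is a line of murine basal cell carcinoma, a skin tumor driven by the Hedgehog pathway, and it keeps growing when the pathway's receptor component SMO is inhibited. It was held in low serum for 24 h with an inhibitor or with DMSO, its solvent. In the first experiment 3 libraries of cells given 10 µM SB431542, which blocks the TGFβ receptor kinase ALK5, stand against 3 DMSO libraries. In the second, 2 libraries of cells given 20 µM T-5224, an inhibitor of the transcription factor AP-1, stand against 2 DMSO libraries of their own. No library is shared, every library comes from this 1 line, and the study's methods call the replicates biological, while the labels do not say whether they are separate cultures. The SDs given measure the spread between these samples. The SEs, from limma, draw on a variance moderated over all genes tested. With few libraries they need not follow the spread of the gene itself.

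The whole-read steps of short genes gave a depth of 31.9 to 51.4 M reads per library, or about 556 to 13225 reads per member and library. DMSO replicate 1 of the SB431542 experiment stood apart. The SD of its log2 differences from the other replicates was 0.27, against 0.16 and 0.19 for the other DMSO libraries and 0.12 to 0.13 for the SB431542 libraries. Markers of basal keratinocytes, the cell type whose keratins the line makes, were present at 1 RPKM or more for 10 of 10 genes. Their summed level was 11403 to 11615 RPKM with DMSO and 8040 to 8622 RPKM with SB431542, and 15781 to 16499 RPKM with DMSO and 2831 to 2971 RPKM with T-5224. The sum is carried by its highest genes, such as Krt5 at a mean of 4889 RPKM with DMSO in the SB431542 experiment. By gene, at an unadjusted p under 0.05 (limma), 2 of the 10 were higher and 4 lower with SB431542. With T-5224, 1 was higher and 9 lower. At that p, 2070 of all 10842 genes were higher and 1842 lower with SB431542. For T-5224, the share over all genes is given at an adjusted p under 0.05, a stricter threshold than that of the marker counts. There, 40.3% of all genes were higher and 39.4% lower. The part of the fall in summed level in the results below was not tested. Of the markers of other cell types, 1 of 8 fibroblast (Dcn), 1 of 6 endothelial (Pecam1), 1 of 8 immune (Cd68) and 0 of 7 adipocyte genes reached a mean of 1 RPKM. Mean Dcn was 2.13 RPKM with DMSO and 3.71 RPKM with SB431542, and 1.89 and 2.55 RPKM with DMSO and T-5224. In the same order, mean Pecam1 was 5.75, 2.69, 11.3 and 4.39 RPKM and mean Cd68 was 8.43, 8.08, 17.6 and 33.0 RPKM. The part of these markers in the results was not tested either.

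Long-chain fatty acids are first joined to coenzyme A by acyl-CoA synthetases such as Acsl3. Cpt1a, in the outer mitochondrial membrane, then passes the acyl chain to carnitine, which is the rate-limiting and malonyl-CoA-sensitive step of the pathway. The carrier Slc25a20 moves the acylcarnitine inward and Cpt2 gives the chain back to coenzyme A. Each turn of the spiral inside starts with an acyl-CoA dehydrogenase, and Acadvl, Acadl and Acadm differ in the chain length they prefer. For long chains, the remaining steps belong to the trifunctional protein, whose alpha subunit Hadha hydrates and oxidises the chain and whose beta subunit Hadhb is the thiolase. Acox3 opens a peroxisomal round of oxidation and acts on branched chains.

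The promoter sequences are shown because the inhibitors act on transcription factors, AP-1 directly and the SMAD proteins through ALK5. All 9 members were matched in RefSeq's table for GRCm38.p6. The capitals mark exact matches, on either strand, of the nuclear receptor core AGGTCA, the Sp1 box GGGCGG and the CCAAT box, so that TGACCT and CCGCCC are the first and the second of these read on the other strand. The 4 runs of 100 bases end at the base before the start site, read 5′ to 3′ on the gene's own strand, and belong to Cpt1a, to Acsl3 and Acox3, whose pattern over the libraries was nearest to it among the members, and to Acadl, which rose with T-5224. The other runs are the stretch of the Acadm promoter with its AGGTCA core and 1 of the 2 Sp1 boxes before Hadhb, which lie within the 272 bases between the RefSeq starts of the divergent genes Hadha and Hadhb.
Cpt1a, chr19:3323201-3323300, plus strand: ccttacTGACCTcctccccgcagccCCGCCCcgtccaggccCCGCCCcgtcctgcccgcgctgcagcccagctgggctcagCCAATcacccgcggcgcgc
Acsl3, chr1:78657725-78657824, plus strand: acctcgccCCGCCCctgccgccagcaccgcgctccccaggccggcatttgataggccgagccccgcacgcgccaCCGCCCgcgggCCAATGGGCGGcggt
Acox3, chr5:35582934-35583033, plus strand: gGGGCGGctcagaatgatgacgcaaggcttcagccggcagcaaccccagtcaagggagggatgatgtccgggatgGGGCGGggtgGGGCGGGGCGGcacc
Acadl, chr1:66863310-66863409, minus strand: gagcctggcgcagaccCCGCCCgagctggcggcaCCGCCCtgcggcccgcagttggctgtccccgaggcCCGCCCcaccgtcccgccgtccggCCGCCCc
Acadm, chr3:153944864-153944893, minus strand: gTGACCTtcgggctccggtgacactgggca
Hadhb, chr5:30155151-30155180, plus strand: cctccgaggagaGGGCGGagtgtctgactt

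The AP-1 motif TGANTCA was found in the 250 bases before the start of 0 of the 9 members and in 6.75% of 32851 mouse promoters. The CRE motif TGACGTCA (1.55% of promoters), the ERR element TCAAGGTCA (0.387%, which contains AGGTCA), the ATF4 motif TTGCATCA (0.791%) and the SMAD motif GTCTAGAC (0.167%) had no match in any member either. AGGTCA was present in 3 members, Cpt1a, Acadm and Acadvl, and in 14.0% of promoters. GGGCGG was present in 7 members, all but Acadm and Acadvl, and in 32.7% of promoters. The windows of Hadha and Hadhb overlap, and the match of Hadha is the same box as the Hadhb match at bases 90 to 85 before its start. CCAAT was present in Cpt1a and Acsl3 and in 33.8% of promoters. Both strands were searched for each motif. The GC content of the window was 75.6% for Acsl3 and 49.6% for Acadvl, the ends of the range among members, and the median promoter had 52.4%. A match or its absence describes only the letters of this window.

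In mm9, the build of the RPKM tables, Cpt1a lies on chromosome 19 from 3323301 to 3385732, Acsl3 on chromosome 1 from 78654400 to 78703562, Acadl on chromosome 1 from 66877413 to 66909851, and Acadm on chromosome 3 from 153585321 to 153607596. Cpt2 is on chromosome 4 from 107576586 to 107596215 and Acadvl on chromosome 11 from 69823685 to 69828913. Acox3 is on chromosome 5 from 35925689 to 35958001. Hadha (30444841 to 30481702) and Hadhb (30481788 to 30511133) stand head to head on chromosome 5, with 85 bases between the genes as GENCODE draws them. All are annotated as protein-coding genes.

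With DMSO in the SB431542 experiment, the members spanned an order of magnitude in RPKM, a scale that corrects for length. Hadha was highest at 60.2 ± 3.18 RPKM (SD, n = 3), followed by Acadl at 58.9 ± 5.82, Acsl3 at 49.5 ± 7.32, Hadhb at 47.2 ± 8.01 and Cpt1a at 43.7 ± 1.16 RPKM. Each of these overlapped its neighbour in the order. Acadvl followed at 37.9 ± 3.72 RPKM, without overlap with Cpt1a but within the range of Hadhb. Below it and without overlap came Acadm at 15.9 ± 0.559, Cpt2 at 8.26 ± 1.06 and Acox3 at 5.0 ± 0.221 RPKM. With DMSO in the T-5224 experiment the order was Hadha, Acadvl, Acadl, Cpt1a, Acsl3, Acadm, Cpt2, Acox3 and Hadhb, with no overlap between neighbours over the 2 libraries. Cpt1a was above 83.8% of the genes tested in the first set of DMSO libraries and above 86.5% in the second. The other genes for the outer-membrane enzyme, Cpt1b and Cpt1c, had group means of 0.0275 to 0.712 RPKM and were not tested.

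**Figure D1:**
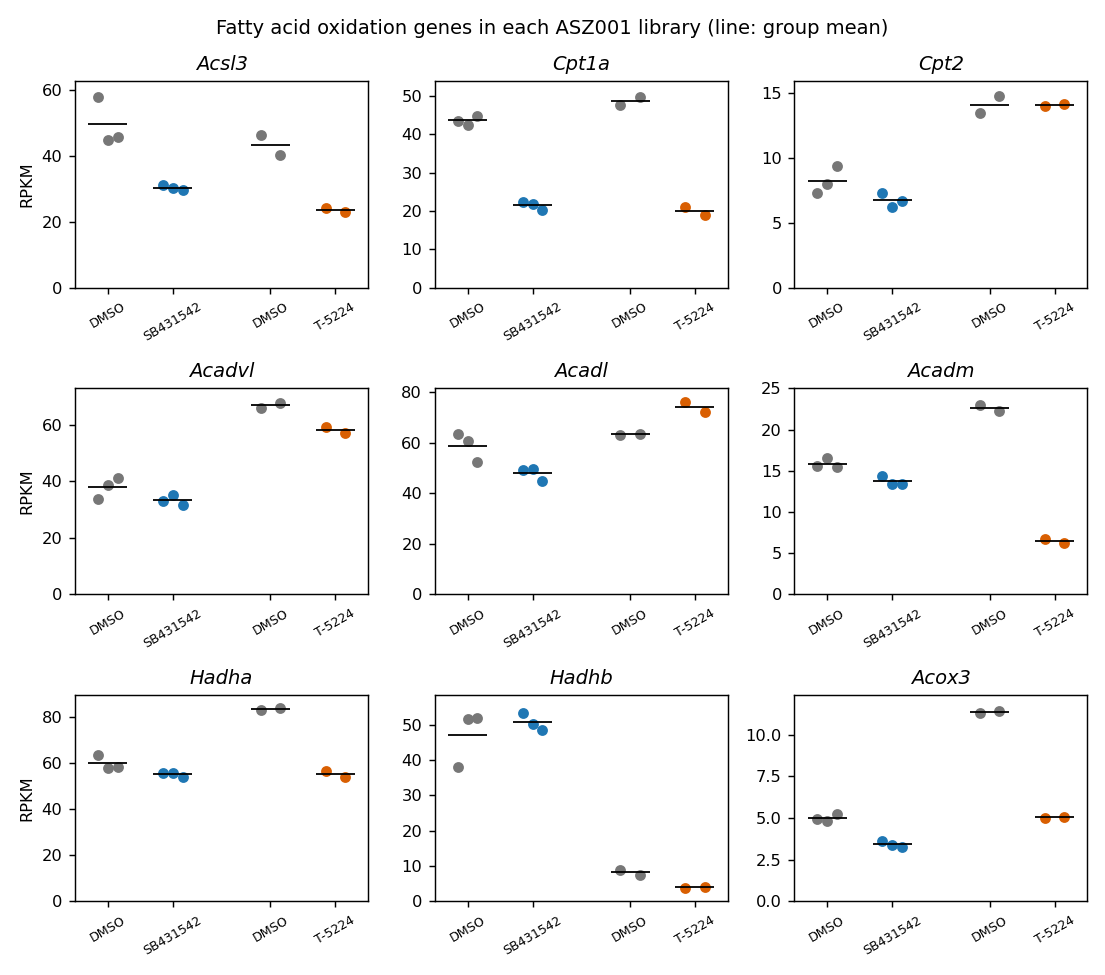
RPKM of the 9 genes in each library, 1 panel per gene with its own axis from 0; points are libraries, lines are group means, grey is DMSO, blue SB431542 and orange T-5224, each inhibitor beside the DMSO libraries of its own table. Cpt1a and Acsl3 lie lower with both inhibitors, Acadm is far lower with T-5224 alone, Acadl lies higher with T-5224, and Hadhb sits near 50.7 RPKM with SB431542 and at 8.81 RPKM or less in all libraries of the T-5224 table.

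With SB431542, 5 of the 9 members passed the test as lower and 0 as higher (limma, adjusted p under 0.05; 0 higher at an unadjusted p under 0.05 as well), and 1 fell by more than 2-fold. Among all 10842 genes tested, 10.0% were lower, 10.2% were higher, 0.581% were down and 0.231% up by more than 2-fold. With T-5224, 7 members were lower, 1 was higher and 3 fell by more than 2-fold, where 39.4% of 10809 genes were lower, 40.3% higher, 10.6% down and 10.4% up by more than 2-fold. The median log2 fold change of the members was -0.27 with SB431542 and -0.86 with T-5224, and the median over all genes was 0.01 and 0.003. Because the members were chosen with these contrasts known, nothing is read from the counts. Without DMSO replicate 1, 7 members were lower with SB431542. The count was 3 without DMSO replicate 2 or without any of the SB431542 libraries.

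Cpt1a showed the largest fall of the group with SB431542. With DMSO it was at 43.6, 42.5 and 44.8 RPKM and with SB431542 at 22.4, 21.8 and 20.2 RPKM. With T-5224 it was at 21.2 and 18.9 RPKM, against 47.8 and 49.8 RPKM with DMSO. The inhibitor libraries of the 2 experiments thus lay between 18.9 and 22.4 RPKM and all DMSO libraries at 42.5 RPKM or more, with no overlap. The log2 fold change was -1.01 ± 0.058 (SE) with SB431542, which left 49.1% of the DMSO level, and -1.26 ± 0.066 with T-5224, which left 41.1%. The fall with SB431542 lay just past 2-fold, and it was just short of it without DMSO replicate 3 or without SB431542 replicate 3, where the log2 fold change was -0.99 and -0.97. In bulk RNA, a lower level in each cell and fewer cells that express a gene cannot be told apart.

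Acsl3, which activates long-chain fatty acids and is also found on lipid droplets, was lower with both inhibitors. Its DMSO libraries held 57.9, 44.9 and 45.7 RPKM, and the SB431542 libraries 31.2, 30.1 and 29.5 RPKM. The T-5224 libraries were at 24.2 and 23.0 RPKM, against 46.4 and 40.3 RPKM. All inhibitor libraries were below all DMSO libraries of the same table. The log2 fold change was -0.69 ± 0.098 with SB431542 and -0.86 ± 0.072 with T-5224. The high value of DMSO replicate 1 carried part of the first, which was -0.57 without that library.

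The carrier Slc25a20 and Cpt2, the steps after Cpt1a, did not pass the test with either inhibitor. Cpt2 was at 7.34, 8.03 and 9.41 RPKM with DMSO and at 7.30, 6.23 and 6.68 RPKM with SB431542. The lowest DMSO and the highest SB431542 library were nearly level, and the log2 fold change of -0.27 ± 0.10 did not pass the test with all libraries, but did at -0.35 without DMSO replicate 1. With T-5224 Cpt2 was at 14.0 and 14.2 RPKM, between its DMSO libraries at 13.5 and 14.8 RPKM. The log2 difference was -0.002 ± 0.070, which was 0.06 without DMSO replicate 2. Slc25a20 went from 7.65 ± 0.818 to 6.24 ± 0.303 RPKM with SB431542 (log2 difference -0.27, adjusted p = 0.0651, limma). With T-5224 it was at 11.3 ± 0.286 RPKM, against 10.9 ± 0.355 RPKM with DMSO (0.05, adjusted p = 0.557).

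The 3 chain-length dehydrogenases went different ways. Acadm, for medium chains, was at 15.6, 16.5 and 15.5 RPKM with DMSO and 14.4, 13.4 and 13.4 RPKM with SB431542, a log2 fold change of -0.21 ± 0.058. With T-5224 it had the largest fall of the group. It was at 6.79 and 6.28 RPKM, against 23.0 and 22.2 RPKM with DMSO, so that 28.9% of the DMSO level was left and the log2 fold change was -1.72 ± 0.072. The groups did not overlap in either experiment.

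Acadl, for long chains, was at 63.6, 60.8 and 52.4 RPKM with DMSO and at 49.3, 49.5 and 45.0 RPKM with SB431542, lower by -0.29 ± 0.082 on the log2 scale. With T-5224 it was at 76.3 and 72.4 RPKM, against 63.3 and 63.4 RPKM with DMSO. It was the only member of the 9 to pass the test as higher, with a log2 fold change of 0.23 ± 0.053. The calls of Acadl and Acadm with SB431542 depended on which libraries were present. Both passed without DMSO replicate 1. Neither passed without DMSO replicate 2 or without any of the SB431542 libraries, and without DMSO replicate 3 Acadl passed and Acadm did not, while the log2 fold changes stayed between -0.37 and -0.23 for Acadl and between -0.24 and -0.18 for Acadm.

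Acadvl, for very long chains, was at 33.9, 38.7 and 41.3 RPKM with DMSO and 33.2, 35.2 and 31.7 RPKM with SB431542, with overlap and a log2 fold change of -0.18 ± 0.081. Without DMSO replicate 1 it was -0.26 and passed the test. The T-5224 libraries had 59.3 and 57.1 RPKM, against 66.0 and 67.8 RPKM, a log2 fold change of -0.20 ± 0.053 with no overlap. Among the members that passed the test with T-5224, this was the smallest change.

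**Figure D2:**
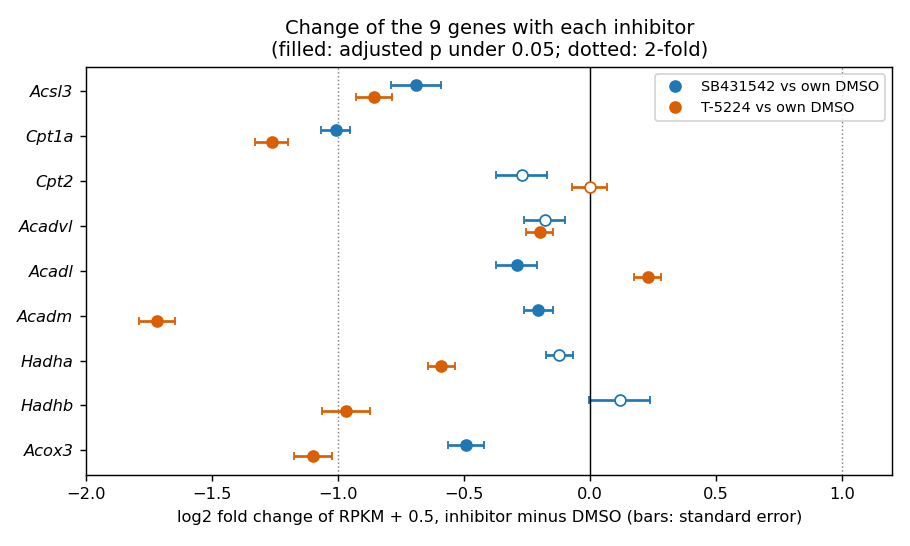
Log2 fold change of RPKM + 0.5 for each of the 9 genes, inhibitor minus its own DMSO libraries, with bars of 1 standard error from limma; blue is SB431542, orange T-5224, filled points passed an adjusted p under 0.05 and dotted lines mark 2-fold. Cpt1a, Acsl3 and Acox3 lie to the left with both inhibitors, Acadm is near -0.21 with SB431542 and -1.72 with T-5224, and Acadl lies on opposite sides of 0.

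The subunits of the trifunctional protein differed between the experiments already at baseline. Hadha was at 63.8, 58.1 and 58.6 RPKM with DMSO and 55.6, 55.8 and 54.2 RPKM with SB431542, a log2 difference of -0.12 ± 0.055 that did not pass the test. With T-5224 it was at 56.7 and 54.1 RPKM, against 83.1 and 84.1 RPKM, and fell by 0.59 ± 0.053 on the log2 scale.

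Hadhb was at 37.9, 51.6 and 52.0 RPKM with DMSO and 53.3, 50.2 and 48.7 RPKM with SB431542. DMSO replicate 1 was the low library, and the log2 difference of 0.12 ± 0.12 was -0.03 without it. In the T-5224 table Hadhb was at 8.81 and 7.58 RPKM with DMSO and at 3.76 and 4.10 RPKM with T-5224, a log2 fold change of -0.97 ± 0.096. Expressed against Hadha, Hadhb stood at 59.4% to 95.8% in the 6 libraries of the SB431542 table and at 6.64% to 10.6% in the 4 libraries of the T-5224 table. The tables were normalized separately, so this is a level set across tables with no test. The Hadhb level in DMSO libraries was lower by -2.45 on the log2 scale in the T-5224 table, and 222 of the 10462 genes tested in both tables (2.12%) were lowered as much or more. The other 8 members differed by -0.19 to 1.11 between the 2 sets of DMSO libraries, and the median gene by 0.01. Why Hadhb differs was not tested. Its fall with T-5224 is a comparison within 1 table.

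**Figure D3:**
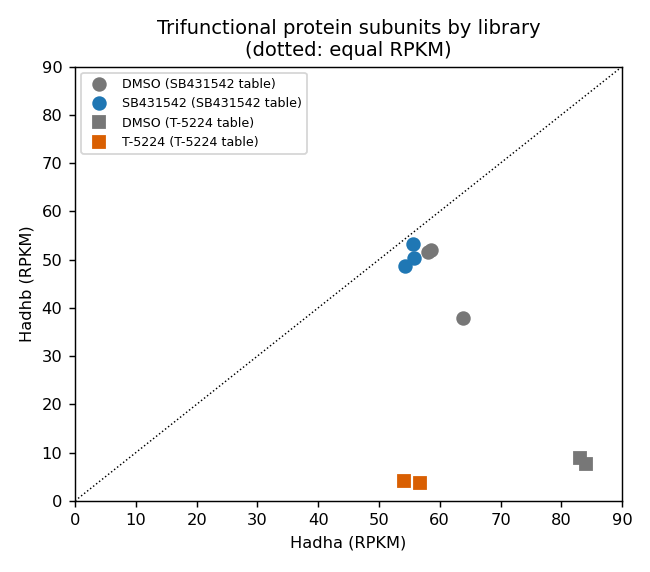
RPKM of Hadhb (vertical) against Hadha (horizontal), 1 point per library; circles are the SB431542 table, squares the T-5224 table, grey is DMSO, blue SB431542, orange T-5224, and the dotted line marks equal RPKM. The SB431542 table lies near the line apart from DMSO replicate 1 at 59.4%, and the T-5224 table lies near the horizontal axis at 6.64% to 10.6%.

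Acox3, the peroxisomal member, was lower with both inhibitors. It was at 4.91, 4.84 and 5.26 RPKM with DMSO and 3.62, 3.37 and 3.25 RPKM with SB431542, a log2 fold change of -0.49 ± 0.071. In the other experiment T-5224 left 4.98 and 5.08 RPKM, against 11.3 and 11.4 RPKM, a log2 fold change of -1.10 ± 0.076. No inhibitor library overlapped with a DMSO library of its table.

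Of the whole table, the 5 genes whose pattern was most like that of Cpt1a were Pecam1, Efhd1, Anxa8, Dbn1 and Inhba. Likeness was the Euclidean distance over the 10 libraries between log2 levels, each taken relative to the mean of its own DMSO libraries, among the 10462 genes tested in both tables. The distances were 0.308 for Pecam1 and Efhd1, 0.346 for Anxa8, 0.372 for Dbn1 and 0.378 for Inhba, where the median gene was at 2.57. Pecam1 is an adhesion molecule best known from endothelium, Efhd1 a mitochondrial calcium-binding protein, Anxa8 an annexin, Dbn1 an actin-binding protein and Inhba the activin subunit. Their log2 fold changes ran from -1.07 to -0.90 with SB431542 and from -1.47 to -1.27 with T-5224. Among the members, Acsl3 came 81st and Acox3 112th in this order, Acadm 739th and Acadl 4623rd. There were 50 genes that fell by more than 2-fold with both inhibitors, Cpt1a being the 1 member among them.

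The rest of the mitochondrial pathway was described by a list of 32 genes, of which 28 were tested in each experiment. With SB431542, 2 were higher, 2 were lower and 24 did not pass the test, with a median log2 fold change of -0.08. Echdc3, a protein of the enoyl-CoA hydratase family, rose from 1.23 ± 0.214 to 1.86 ± 0.222 RPKM (log2 fold change 0.45, adjusted p = 0.0414, limma). Without DMSO replicate 1, 4 genes of the list were higher and 10 lower, and without any other library at most 1 gene passed.

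With T-5224, 13 of the 28 genes were lower, 6 were higher and 9 did not pass, with a median of -0.17. Of these, 3 fell by more than 2-fold. Acads, the dehydrogenase for short chains, fell from 48.9 ± 1.14 to 21.8 ± 1.09 RPKM (log2 fold change -1.15, adjusted p = 1.06e-08). Pccb, a subunit of propionyl-CoA carboxylase, which takes up the end product of odd chains, fell from 8.19 ± 0.127 to 2.98 ± 0.459 RPKM (-1.33, adjusted p = 2.78e-07). Acad12, a further acyl-CoA dehydrogenase, fell from 4.33 ± 0.173 to 1.83 ± 0.139 RPKM (-1.05, adjusted p = 2.15e-06). The share of the list that was lower, 46.4%, lay near the 39.4% of all genes. The share that was higher, 21.4%, lay below the 40.3% of all genes. Mlycd, which degrades the Cpt1a inhibitor malonyl-CoA, rose from 13.4 ± 0.997 to 16.7 ± 1.92 RPKM (0.30, adjusted p = 0.00733, limma). The Mlycd call was lost with no filter on low values and without T-5224 replicate 1.

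The peroxisomal list holds 20 genes. With SB431542, 2 of 12 tested were lower and 0 higher (limma; 0 higher at an unadjusted p under 0.05). Phyh, which starts the breakdown of phytanic acid, fell from 8.54 ± 0.269 to 6.28 ± 0.872 RPKM (log2 fold change -0.42, adjusted p = 0.0253). Without DMSO replicate 1, 7 were lower, and without any other library at most 1 was. With T-5224, 7 of 14 tested were lower and 4 higher. Acox2, the oxidase for bile acid intermediates and branched chains and a relative of Acox3, was at 0.309 ± 0.012 RPKM with DMSO and at 23.5 ± 0.992 RPKM with T-5224, a log2 difference of 4.89. It passed the filter on low values through the T-5224 libraries alone, so its count among the higher genes is no evidence by itself. The same holds for Hacl1 among the lower genes, which passed through its DMSO libraries at 1.97 RPKM and was at 0.80 RPKM with T-5224. Over all lists, 2 of 167 genes tested with SB431542 and 7 of 172 with T-5224 passed through 1 group alone, and no p is given for those named. Acaa1a and Acaa1b are near-identical copies, and their values are uncertain.

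**Figure D4:**
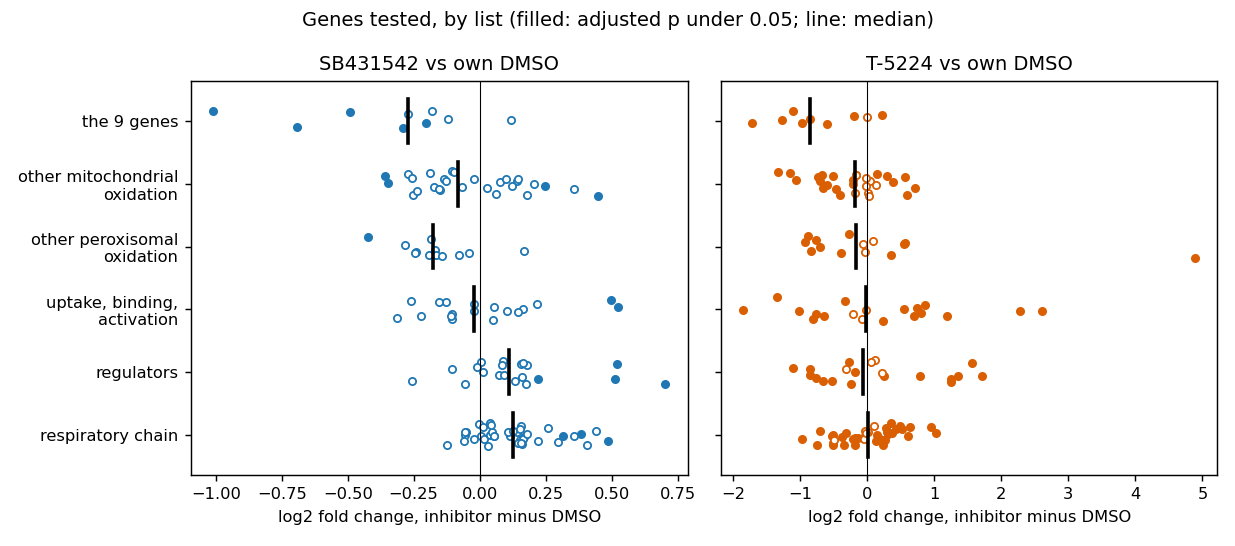
Log2 fold change of every tested gene in 6 lists, SB431542 at left and T-5224 at right with different axis ranges; each circle is a gene, filled where the adjusted p was under 0.05, and the black line is the median of the list. Most circles are open with SB431542 and most are filled with T-5224, the medians of the 9 genes lie left of 0 at -0.27 and -0.86 with 1 gene of the 9 to the right of 0 in each panel, and Acox2 stands alone at 4.89.

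In the list for uptake, binding and activation of fatty acids, the synthetase Acsl5 went the opposite way to Acsl3. With SB431542, 2 of 18 tested genes were higher and 0 lower (limma; 1 lower at an unadjusted p under 0.05). Acsl5, which also acts on long chains, rose from 79.3 ± 3.60 to 112 ± 3.27 RPKM (log2 fold change 0.50, adjusted p = 0.00159), and Fabp5, the fatty acid-binding protein of keratinocytes, from 128 ± 7.87 to 184 ± 8.09 RPKM (0.52, adjusted p = 0.0023). Both calls were kept in all 15 alternatives. Without DMSO replicate 1, 5 genes of the list were higher and 3 lower.

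With T-5224, 9 of 19 were higher, 7 were lower and 3 did not pass. Acsl5 rose from 50.0 ± 3.87 to 115 ± 3.08 RPKM (1.19, adjusted p = 9.31e-09). Them4, an acyl-CoA thioesterase, rose from 2.95 ± 0.026 to 16.2 ± 0.064 RPKM (2.28, adjusted p = 2.7e-10), and Acot2, a mitochondrial thioesterase, from 4.45 ± 0.598 to 29.5 ± 0.317 RPKM (2.60, adjusted p = 2.32e-10). Acot2 shares near-identical sequence with Acot1, so the value of each is uncertain. Acsf2, an acyl-CoA synthetase of mitochondria, fell from 5.29 ± 0.118 to 1.11 ± 0.079 RPKM (-1.84, adjusted p = 2e-08), Dbi, the acyl-CoA-binding protein, from 446 ± 2.93 to 176 ± 3.48 RPKM (-1.34, adjusted p = 5.4e-10), and Slc27a4, a fatty acid transporter of skin, from 24.9 ± 0.795 to 12.0 ± 0.126 RPKM (-1.02, adjusted p = 4.44e-08).

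Among the regulators of the pathway, the nuclear receptors Ppara and Pparg were close to 0, with group means of 0.049 to 0.11 and 0.021 to 0.13 RPKM, and were not tested. Ppard was the PPAR with reads, at 18.3 ± 1.25 and 20.4 ± 0.091 RPKM with DMSO and SB431542 (log2 difference 0.16, adjusted p = 0.112). With T-5224 it rose from 20.0 ± 0.600 to 66.5 ± 1.04 RPKM (1.71, adjusted p = 2.31e-10), while its partner Rxra fell from 51.0 ± 1.58 to 23.3 ± 0.873 RPKM (-1.11, adjusted p = 1.14e-08).

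The coactivator Ppargc1a was near 7.53 RPKM with DMSO and 7.98 RPKM with SB431542 (0.09, adjusted p = 0.599), and it fell from 8.41 ± 0.298 to 4.44 ± 0.233 RPKM with T-5224 (-0.85, adjusted p = 2.21e-06). Its relative Ppargc1b was at 0.95 ± 0.026 RPKM with DMSO and 1.86 ± 0.091 RPKM with SB431542, a log2 difference of 0.70 in a gene that passed the filter through SB431542 alone, and was at 0.752 and 1.16 RPKM with DMSO and T-5224, under the floor of the test. Esrra, the nuclear receptor that these coactivators serve, rose with SB431542 from 29.5 ± 5.71 to 41.7 ± 1.54 RPKM (0.51, adjusted p = 0.0329) and fell with T-5224 from 66.6 ± 0.691 to 58.6 ± 4.10 RPKM (-0.18, adjusted p = 0.014). The first of these Esrra calls was lost with no filter on low values, without DMSO replicate 2 and without any SB431542 library. The second was lost with no variance trend and without T-5224 replicate 2.

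AMPK is the kinase that lowers malonyl-CoA and so relieves Cpt1a. Its catalytic subunit Prkaa2 rose with SB431542 from 1.47 ± 0.026 to 2.33 ± 0.226 RPKM (0.52, adjusted p = 0.00857) and with T-5224 from 1.09 ± 0.059 to 2.26 ± 0.120 RPKM (0.80, adjusted p = 7.16e-05). The more abundant Prkaa1 was at 15.8 and 15.9 RPKM with DMSO and SB431542 (0.01, adjusted p = 0.971) and fell with T-5224 from 12.965 ± 0.621 to 8.08 ± 0.853 RPKM (-0.65, adjusted p = 2.31e-05). Prkab1, a regulatory subunit, rose with T-5224 from 11.5 ± 0.120 to 30.3 ± 0.709 RPKM (1.36, adjusted p = 3.28e-09).

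The acetyl-CoA carboxylases make the malonyl-CoA that inhibits Cpt1a. Acaca, the main one here, was at 27.8 ± 0.850 and 30.5 ± 0.656 RPKM with DMSO and SB431542 (0.13, adjusted p = 0.103) and fell with T-5224 from 6.12 ± 0.325 to 4.12 ± 0.016 RPKM (-0.52, adjusted p = 0.00019). Acacb, the mitochondrial form, was at 0.389 ± 0.098 RPKM with DMSO and 1.62 ± 0.144 RPKM with T-5224, a log2 difference of 1.25 in a gene that passed the filter through T-5224 alone. Sirt3, the mitochondrial deacetylase of oxidation enzymes, rose with T-5224 from 4.36 ± 0.349 to 13.9 ± 0.096 RPKM (1.57, adjusted p = 9.6e-09).

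Over the whole list of regulators, 4 of 20 tested were higher with SB431542 and 0 lower (limma; 1 lower at an unadjusted p under 0.05). Among the 4 is Ppargc1b, which passed the filter on low values through the SB431542 libraries alone. Its place in the count is no evidence by itself, and it is also part of each count with a library left out. The number of higher genes was 7 without DMSO replicate 1, 3 without DMSO replicate 3 and 2 without any of the other libraries. Prkaa2 kept its call in all 14 alternatives in which it was tested. With T-5224, 7 of 20 were higher and 9 lower, where 40.3% of all genes were higher and 39.4% lower. Acacb is among these 7 and passed the filter through the T-5224 libraries alone, so its place in the count is no evidence either.

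Genes outside oxidation that PPARs are known to activate included lower and higher ones with each inhibitor. With SB431542, 3 of 7 tested were lower (42.9%) and 1 higher (14.3%), where 10.0% of all genes were lower and 10.2% higher. With T-5224, 2 of 9 were lower (22.2%) and 5 higher (55.6%), where 39.4% of all genes were lower and 40.3% higher. Ucp2, an inner membrane carrier of mitochondria, fell with SB431542 from 39.7 ± 3.30 to 12.6 ± 1.30 RPKM (-1.62, adjusted p = 0.000123) and with T-5224 from 198 ± 6.18 to 24.9 ± 0.861 RPKM (-2.97, adjusted p = 3.18e-12). Plin2, the coat protein of lipid droplets, fell from 28.1 ± 3.31 to 16.8 ± 1.39 RPKM (-0.72, adjusted p = 0.00375) and from 61.8 ± 0.541 to 50.0 ± 0.033 RPKM (-0.30, adjusted p = 0.000213).

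Among the secreted factors of the list, Fgf21, a hormone of fasting, was at 0.665 ± 0.221 RPKM with DMSO and 26.5 ± 0.523 RPKM with T-5224 (log2 difference 4.55). Angptl4, an inhibitor of lipoprotein lipase, was at 0.50 ± 0.0099 and 1.52 ± 0.164 RPKM (1.02). Both passed the filter through T-5224 alone, and both are among the 5 higher genes of the list. With SB431542 Angptl4 was at 0.198 RPKM against 0.982 RPKM with DMSO, under the floor of the test. Pdk4, the kinase that holds back glucose oxidation, was at 0.0673 to 0.372 RPKM in all groups and was not tested. The higher count of PPAR targets with SB431542 was 0 without DMSO replicate 2, SB431542 replicate 1 or SB431542 replicate 2, and the lower count was 2 without any 1 of the SB431542 libraries. Ucp2 and Plin2 kept their calls throughout.

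The respiratory chain, which takes the electrons of oxidation, was described by 39 nuclear genes, all tested. With SB431542, 3 were higher (7.69%) and 0 lower (limma, also 0 lower at an unadjusted p under 0.05). Of all genes tested, 10.2% were higher and 10.0% lower. The median log2 fold change of the list was 0.13, against 0.01 over all genes. Sdhd, a membrane anchor of complex II, rose from 54.4 ± 10.1 to 75.5 ± 2.64 RPKM (0.49, adjusted p = 0.0366). Without DMSO replicate 1, 17 were higher and 1 lower. The higher count was 0 without SB431542 replicate 1 or 2 and 1 without SB431542 replicate 3. With T-5224, 18 were higher and 14 lower with a median of 0.01, and Cyc1, cytochrome c1 of complex III, rose from 122 ± 0.284 to 249 ± 9.72 RPKM (1.02, adjusted p = 7.2e-09).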

How the data were processed

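RNA was isolated with a spin-column kit, made into stranded mRNA libraries and sequenced on an Illumina HiSeq. The deposited RPKM were computed by the authors with HOMER from TopHat alignments to mm9. The authors compared groups with DESeq2 on counts, which are not used here. The 2 tables were normalized separately and were tested separately. For T-5224, the labels call the DMSO libraries 4 and 5 and the table numbers its DMSO columns 1 and 2, so these columns were assigned to the group only.

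Date-like gene names (22 of 17680 rows and 23 of 16742) were dropped. Genes at a mean of 1 RPKM or more over a table, 10842 and 10809, were tested on log2(RPKM + 0.5) using limma 3.58.1 (R 4.3.3), two-sided and with variance moderated along a trend in expression, with Benjamini-Hochberg adjustment over all genes tested. Fold changes are on that scale, which understates the change of low genes. A gene changed at an adjusted p under 0.05, and more than 2-fold is a log2 fold change beyond 1. The fit was tested on simulated data. Depth was worked out from RPKM steps of short genes, where 98.8% to 100.0% of values lay within 0.05 of a whole read. The errors were computed from the spread between replicates, moderated over genes for the SE, and not from read counts. For some members the SD lay below the counting error. An example is Acadl with DMSO in the T-5224 experiment, at 63.3 ± 0.0516 RPKM (SD) with a counting error of 1.45% to 1.61%.

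Members and lists were chosen with earlier results of these data known. Genes were named by a rule, namely all members, per list and inhibitor up to 3 of the largest rises and falls past 2-fold or else the largest change, a set of regulators, and the 5 genes nearest to Cpt1a. The alternatives were pseudocounts of 0.1 and 1, no filter or a floor of 5 RPKM, quantile normalization, median centring, no variance trend, an unadjusted p, replicate number as a block (SB431542) and leaving out each library. Positions are from GENCODE on NCBIM37, the assembly behind mm9, and promoters from RefSeq on GRCm38.p6.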

Additional observations from a re-analysis of the deposited data

Results flagged for a closer look

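Acadl was the 1 member that passed the test in opposite directions with the inhibitors. Every T-5224 library lay above every DMSO library of its table, with a log2 fold change of 0.23, and every SB431542 library lay below its own DMSO libraries, with a log2 fold change of -0.29. The SB431542 call was lost with no filter on low values and with no variance trend. It was also lost without DMSO replicate 2 and without any 1 of the SB431542 libraries. With T-5224, 40.3% of all genes tested were higher. The difference between the 2 changes was not tested, and the agents and doses differ.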

How the results depend on the processing

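The falls of Cpt1a, Acsl3 and Acox3 passed the test with both inhibitors in every alternative in which they were tested, and Acox3 was not tested with SB431542 at a floor of 5 RPKM. With SB431542, lower members numbered 3 with no filter or no trend and 3 to 7 with 1 library left out, and the member down by more than 2-fold was lost (0) at a pseudocount of 1 and in 2 left-out libraries (0 to 1). The other mitochondrial and peroxisomal oxidation genes numbered 2 higher and 4 lower with SB431542. They were 1 and 2 with no filter, 1 higher at a mean RPKM of at least 5, 10 lower at an unadjusted p, and 0 to 4 higher and 0 to 17 lower with 1 library left out. Over all genes, SB431542 gave 38, 12 and 10 up by more than 2-fold at pseudocounts of 0.1 and 1 and a mean RPKM of at least 5, 41 down at that mean RPKM, 2070 higher and 1842 lower at an unadjusted p, and 301 to 2162 higher and 431 to 1912 lower with 1 library left out. With T-5224, 742 genes were down by more than 2-fold at a mean RPKM of at least 5, where fewer genes are tested. With 1 library left out, the log2 fold change of Hadhb with SB431542 ran from -0.0305, a reversed sign, without DMSO replicate 1 to 0.195, and that of Cpt2 with T-5224 from -0.0636 to 0.0596, reversed without DMSO replicate 2 (0.0596) and without T-5224 replicate 1 (0.00731). Leaving out a library of the T-5224 experiment leaves 1 in its group, which is then assumed to vary like the other group. The causes were not tested. Of the list genes, 10 of 25 that changed with SB431542 and 108 of 127 with T-5224 passed in every alternative, and no sign turned. No scaling moved the median gene by 0.1 or more.

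With the replicate number as a block, SB431542 gave 0 higher and 1 lower among the other oxidation genes and 572 higher and 699 lower over all genes, and Acadm did not pass. The correlations of same-numbered libraries were -0.15, 0.15 and -0.09, and those of differently numbered libraries ran from -0.17 to 0.20. Not every library correlated best with its own number. Correlations this low, from 3 libraries per group, cannot tell whether the numbers pair the libraries, and the labels do not say. For T-5224, no paired analysis was possible because the labels of its DMSO and inhibitor libraries share no replicate number.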

Other observations

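Fatty acid synthesis, the opposite pathway, was described by a list of 26 genes. With SB431542, 4 of 23 tested were higher (17.4%) and 0 lower (limma, 1 lower at an unadjusted p under 0.05). Of all genes, 10.2% were higher and 10.0% lower. Fasn, the fatty acid synthase, rose from 93.4 ± 6.74 to 125 ± 5.13 RPKM (SD, n = 3; log2 fold change 0.42, adjusted p = 0.00658, limma), a call kept in all 15 alternatives. The count was 6 higher and 2 lower without DMSO replicate 1 and 2 higher without any other library. With T-5224, 9 of 23 were higher and 9 lower (39.1% each), near the 40.3% and 39.4% of all genes. Elovl7, an elongase, rose from 5.24 ± 0.087 to 18.8 ± 1.22 RPKM (SD, n = 2; 1.75, adjusted p = 2.12e-09), and Fads1, a desaturase, from 71.5 ± 3.57 to 162 ± 4.44 RPKM (1.17, adjusted p = 4.27e-09).

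Of the genes for lipid droplets and lipolysis, 2 of 11 tested were lower with SB431542 and 0 higher (limma; 1 higher at an unadjusted p under 0.05), and 4 were higher and 4 lower with T-5224. Mgll, the lipase for monoglycerides, fell with SB431542 from 3.31 ± 0.445 to 1.93 ± 0.069 RPKM (-0.64, adjusted p = 0.00654) and was at 2.67 ± 0.260 RPKM with DMSO and 0.305 ± 0.014 RPKM with T-5224 (-1.97), where it passed the filter on low values through DMSO alone. With T-5224, Lipe, the hormone-sensitive lipase, rose from 2.66 ± 0.050 to 8.98 ± 0.303 RPKM (1.59, adjusted p = 1.4e-08), and Dgat2, which makes triglyceride, from 2.84 ± 0.107 to 8.16 ± 0.614 RPKM (1.37, adjusted p = 7.93e-08). Lipa, the lysosomal lipase, fell from 9.79 ± 0.185 to 4.07 ± 0.475 RPKM (-1.18, adjusted p = 2.97e-07).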
